A study of Mus musculus with 2 samples.

Results

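The 40 genes described here act in the copying of DNA and in cell division, and they were listed by function, with earlier results of these data known. All 40 were found by symbol among the 32285 genes of the deposited tables, and all 40 are protein coding in GENCODE release M21. They fall into 7 roles: 4 genes of nucleotide synthesis, 7 of the replication fork, 2 E-type cyclins, 6 genes of the later cyclins and their kinase, 7 mitotic kinase, checkpoint and ubiquitin ligase genes, 10 spindle, centromere and cytokinesis genes, and 4 genes of chromatin and the cytoskeleton that are widely used as proliferation markers.

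The cells came from tumours of Hepa1-6, a mouse hepatoma line, in a control group and in a group given CD147-LYTACs. A lysosome-targeting chimaera, or LYTAC, carries a surface protein into the lysosome for degradation, and CD147 is the surface glycoprotein basigin. Treated mice received 4 doses of 40 mg/kg, 1 every 3 days, and tumours were taken on day 12; the labels name both the intraperitoneal and the intravenous route, and the strain, age, control injection and number of tumours per library are not given in the sources used here. Cells negative and positive for CD45, the pan-leukocyte surface marker, were sorted apart and recombined at 1 part to 3 parts, so the share of a cell type in a library does not give its share in the tumour. Each group was 1 library of droplet single-cell RNA sequencing, so no difference between the groups has a replicate check and none was tested. Intervals below are 95% intervals and cover counting error only. That of a ratio of shares combines the 95% bounds of both shares and is wider than a 95% interval.

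A dividing cell first makes deoxynucleotides and loads and fires replication origins, then condenses its chromosomes, builds a spindle and divides. The transcripts of these genes rise and fall with the cycle: E2F factors drive the replication genes near the entry into S phase, and the complexes DREAM, B-MYB-MuvB and FOXM1 set the mitotic genes through the cell cycle homology region (CHR) and CCAAT boxes bound by NF-Y. A summed level over all cells of a type therefore mixes the number of cells in cycle with the amount of transcript in each, and these are given apart below. Activated CD8 T cells and tumour cells both divide in tumours, while mature neutrophils have left the cycle.

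Promoters in RefSeq for GRCm38.p6 were matched for 34 of the 40 genes. In the 250 bases before the annotated start, a CHR motif (TTTGAA or TTCGAA, either strand) was present in 14 of the 34 (41.2%), against 19.6% of 27025 genes of all kinds. A CCAAT motif (CCAAT, either strand) was present in 28 (82.4%), against 37.5% of all genes. An E2F motif (TTTGGCGC, TTTCGCGC, TTTCCCGC or TTTGCCGC, either strand, where the strands can overlap) was present in 5 (14.7%), against 2.16%. CHR letters were found in 9 of 19 mitotic genes (47.4%) and 2 of 12 replication genes (16.7%), and E2F letters in 2 of the 19 (10.5%) and 3 of the 12 (25%). A match is a description of these letters and shows no binding. The promoters below are examples from the 34 genes, 4 that act in mitosis or mark the cycle and 2 of the replication helicase. They run 5′ to 3′ on the gene's strand, and capitals mark the motif letters on either strand.
Ccnb2 (GRCm38.p6, chr9:70421555-70421804, minus strand): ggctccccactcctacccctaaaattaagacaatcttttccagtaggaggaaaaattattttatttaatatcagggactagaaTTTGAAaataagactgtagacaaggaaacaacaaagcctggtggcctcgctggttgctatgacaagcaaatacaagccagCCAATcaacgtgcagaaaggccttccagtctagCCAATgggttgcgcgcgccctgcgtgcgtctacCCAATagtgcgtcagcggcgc
Cdk1 (GRCm38.p6, chr10:69352913-69353162, minus strand): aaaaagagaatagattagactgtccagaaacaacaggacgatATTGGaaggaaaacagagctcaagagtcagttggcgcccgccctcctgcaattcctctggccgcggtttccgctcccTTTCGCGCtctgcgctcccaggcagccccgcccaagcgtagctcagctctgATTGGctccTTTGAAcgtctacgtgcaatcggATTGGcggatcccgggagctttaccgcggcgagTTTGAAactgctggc
Ube2c (GRCm38.p6, chr2:164769679-164769928, plus strand): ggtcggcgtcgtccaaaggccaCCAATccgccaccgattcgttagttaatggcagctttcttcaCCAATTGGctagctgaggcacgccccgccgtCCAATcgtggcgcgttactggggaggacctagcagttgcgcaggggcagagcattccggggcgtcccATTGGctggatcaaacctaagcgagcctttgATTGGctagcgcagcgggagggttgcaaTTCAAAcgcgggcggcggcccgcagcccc
Mki67 (GRCm38.p6, chr7:135716380-135716629, minus strand): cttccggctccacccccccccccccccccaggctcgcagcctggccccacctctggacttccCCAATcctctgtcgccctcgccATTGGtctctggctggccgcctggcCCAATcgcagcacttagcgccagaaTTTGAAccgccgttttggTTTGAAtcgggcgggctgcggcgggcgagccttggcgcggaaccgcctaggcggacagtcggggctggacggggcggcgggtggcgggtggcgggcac
Mcm5 (GRCm38.p6, chr8:75109259-75109508, plus strand): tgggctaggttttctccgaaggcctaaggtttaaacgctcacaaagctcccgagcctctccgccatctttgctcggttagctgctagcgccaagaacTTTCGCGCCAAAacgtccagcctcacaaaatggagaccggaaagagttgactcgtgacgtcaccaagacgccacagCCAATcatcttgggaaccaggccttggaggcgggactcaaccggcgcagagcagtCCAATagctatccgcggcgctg
Mcm6 (GRCm38.p6, chr1:128359706-128359955, minus strand): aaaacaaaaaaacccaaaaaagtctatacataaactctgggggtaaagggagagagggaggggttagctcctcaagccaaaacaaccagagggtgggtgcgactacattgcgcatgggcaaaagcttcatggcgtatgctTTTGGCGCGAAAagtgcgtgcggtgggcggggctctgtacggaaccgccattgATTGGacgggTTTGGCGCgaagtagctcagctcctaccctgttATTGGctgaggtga
The upstream windows of Ccnb2, Cdk1, Ube2c and Mki67 hold CHR and CCAAT letters together, with 3 CCAAT matches each in Ccnb2, Cdk1 and Mki67 and 6 in Ube2c. Those of Mcm5 and Mcm6 hold no CHR letters but 2 and 3 E2F matches, some of them the same bases read on both strands. They also hold 2 CCAAT matches each, and the Cdk1 window holds 1 E2F match. The split is not strict, as windows of the helicase genes Mcm2 and Mcm7, not printed here, hold CHR letters.

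Depth was 143495332 UMIs over 8150 barcodes in the control and 149812326 UMIs over 9219 barcodes in the treated library, with medians of 6731.5 and 5953 UMIs per barcode, and 24 barcode sequences occurred in both. After filtering, 5585 control and 6225 treated cells passed the gate of exactly 1 cell type; 89 control cells (1.33%) and 325 treated cells (4.25%) passed several gates and were left out, and 1015 (15.2%) and 1091 (14.3%) passed none. By construction of the gates, lineage markers differ between the types, and their levels show how much signal of another lineage remained. Cd3e, a T cell receptor subunit, was at 321 and 317 CPM (UMIs scaled to the total of the summed cells, control first here and below) in CD8 T cells and at 0.78 and 0.62 CPM in hepatoma cells. Krt8, a keratin of the hepatoma cells, was at 1719 and 1803 CPM in those cells and at 20.97 and 24.48 CPM in CD8 T cells. In bulk sums of this kind, fewer cells in cycle and less transcript per cycling cell cannot be told apart and cycling cells were called first.

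Cells in cycle were called from 90 other genes of mitosis and replication, none of them among the 40, after each cell had been thinned at random to 2000 UMIs. Hepatoma cells needed 6 UMIs of these 90 genes and cells of all other types 12, numbers that were set after the distributions had been seen. The call marks a range of a score and not a cell type: 40 control and 54 treated hepatoma cells stood exactly at the lowest accepted count and 49 and 60 at 1 UMI below it. Among CD8 T cells 15 and 16 stood at that count and 16 and 18 at 1 below. The plot of caller UMIs per cell shows these distributions.

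**Figure D1:**
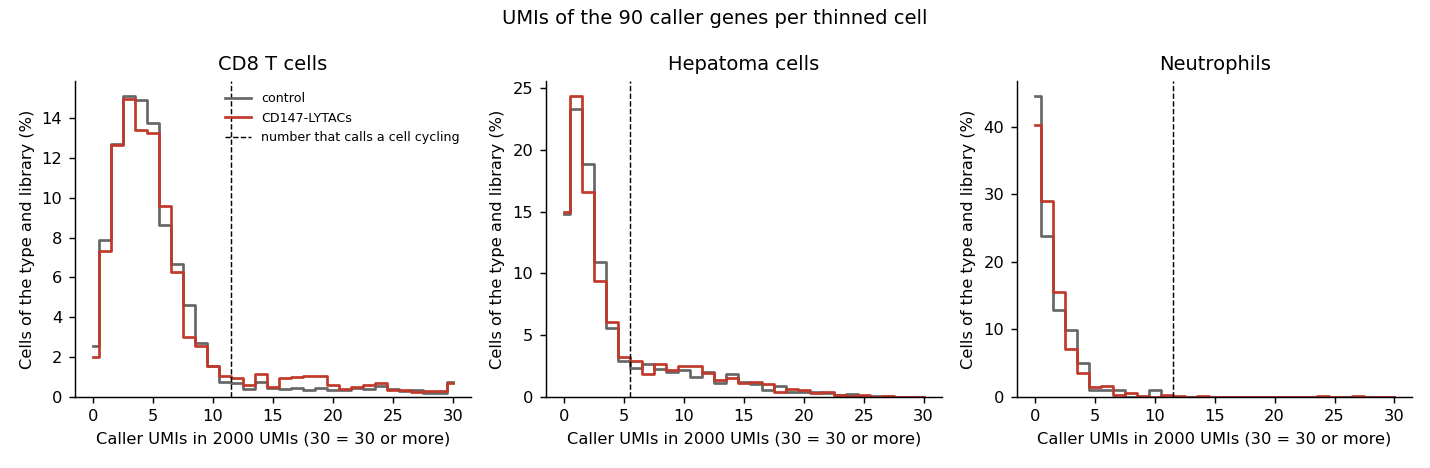
Caller UMIs per cell after thinning to 2000 UMIs (x axis) against the percentage of cells (y axis) in CD8 T cells, hepatoma cells and neutrophils of the control and the treated library; the last step pools 30 UMIs or more, and the dashed line stands just below the count from which a cell was called cycling, 6 in hepatoma cells and 12 in the others. Most CD8 T cells lie to the left of the line with a long tail to its right, hepatoma cells run through the line with no gap, and neutrophils hardly reach it.

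The treated library held a higher share of CD8 T cells in cycle, and hepatoma cells differed little between the libraries. Of the CD8 T cells, 178 of 2194 were cycling in the control (8.11%, 7.004 to 9.335%) and 207 of 1689 in the treated library (12.3%, 10.7 to 13.9%). That is a ratio of 1.51 (1.15 to 1.99), and the 2 intervals of the shares do not overlap. With cells called by replication genes only, the ratio was 1.49 and its interval, 0.978 to 2.28, includes 1. Of the hepatoma cells, 404 of 1707 were cycling in the control (23.7%, 21.7 to 25.8%) and 478 of 1881 in the treated library (25.4%, 23.5 to 27.4%), a ratio of 1.07 (0.911 to 1.27). The hepatoma intervals overlap, and the difference between the 2 ratios was not tested. With 10 caller UMIs asked of both types, a number added after the data had been seen, the shares were 10.4% and 14.9% in CD8 T cells and 14.4% and 15.9% in hepatoma cells. Cycling cells held more RNA than the others of their type: medians were 15737 and 14710 UMIs against 6683.5 and 6578.5 in CD8 T cells, and 68083 and 61790.5 against 46045 and 42133 in hepatoma cells.

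Within CD8 T cells, the share in cycle was also read by 2 marker genes of T cell state in the thinned cells, where a gene without a UMI may still be expressed. Among cells with a UMI of Havcr2, which encodes the checkpoint receptor TIM-3, 55 of 804 control cells (6.84%, 5.19 to 8.81%) and 64 of 633 treated cells (10.1%, 7.87 to 12.7%) were cycling. Cells with a UMI of Tcf7, a factor of memory-like T cells, and none of Havcr2 were cycling in 11 of 144 (7.64%, 3.87 to 13.3%) and 9 of 73 (12.3%, 5.80 to 22.1%). Those with neither were cycling in 112 of 1246 (8.99%, 7.46 to 10.7%) and 134 of 983 (13.6%, 11.5 to 15.9%). The treated value is the higher one in each of these 3 classes, and the intervals are apart only in the class with neither UMI.

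Few other cell types held enough cycling cells for a share to be read. CD4 T cells were cycling in 14 of 262 (5.34%, 2.95 to 8.80%) and 15 of 176 (8.52%, 4.85 to 13.7%), and Foxp3-positive T cells, a regulatory T cell gate, in 10 of 52 (19.2%, 9.63 to 32.5%) and 4 of 43 (9.30%, 2.59 to 22.1%). T cells placed in none of the CD4, CD8 and Foxp3 gates were cycling in 30 of 805 (3.73%, 2.53 to 5.28%) and 28 of 570 (4.91%, 3.29 to 7.02%). In each of these 3 types the intervals of the libraries overlap. Macrophages and monocytes had 3 cycling cells of 143 in the control (2.10%, 0.435 to 6.01%) and 0 of 408 in the treated library (0 to 0.900%). Conventional dendritic cells had 4 of 77 (5.19%, 1.43 to 12.8%) and 0 of 50 (0 to 7.11%), and NK cells 5 of 75 (6.67%, 2.20 to 14.9%) and 1 of 82 (1.22%, 0.0309 to 6.61%). Neutrophils, taken as the non-dividing comparison, had 0 of 101 (0 to 3.59%) and 4 of 915 (0.437%, 0.119 to 1.12%).

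**Figure D2:**
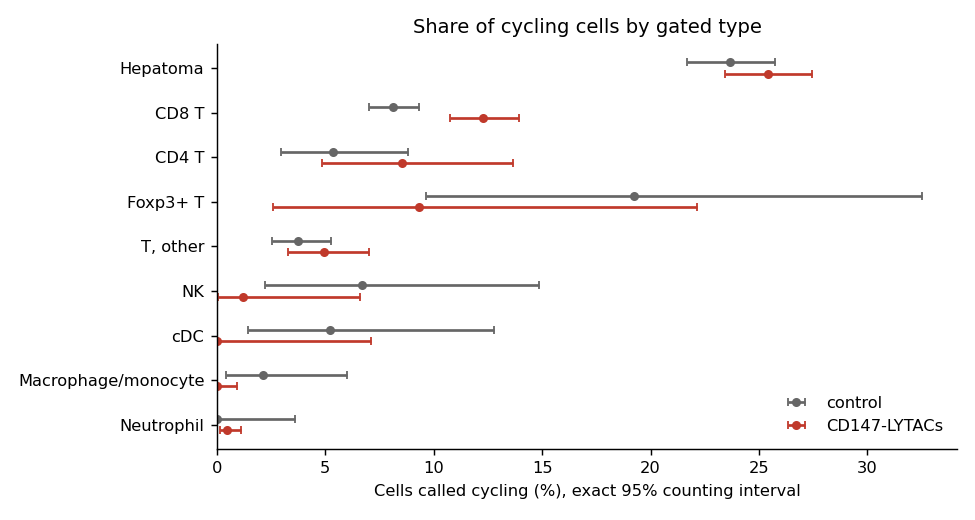
Percentage of cells called cycling (x axis) in each gated cell type (y axis) of the control and the treated library, with exact 95% intervals of counting error as bars. CD8 T cells stand at 8.11% and 12.3%, hepatoma cells at 23.7% and 25.4%, and neutrophils at 0% and 0.437%.

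Mki67, which encodes the proliferation antigen Ki-67, was seen in more CD8 T cells of the treated library and at about the same level within the cycling ones. At 2000 UMIs per cell, a UMI of Mki67 was seen in 8.20% of control and 11.4% of treated CD8 T cells, and in 13.7% and 13.4% of hepatoma cells. In neutrophils, which should lack it, the shares were 1.98% and 2.62%, at a median of 3035 UMIs per cell in both libraries. Without thinning the shares were 15.7% and 21.9% in CD8 T cells, 41.0% and 41.5% in hepatoma cells and 3.96% and 3.72% in neutrophils. In sums over all CD8 T cells, Mki67 was at 157 and 205 CPM, giving a log2 ratio of treated over control of 0.39 (0.32 to 0.46). In cycling CD8 T cells alone it was at 787 and 781 CPM, for a log2 ratio of -0.01 (-0.09 to 0.07).

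Over all CD8 T cells, 38 of the 40 genes were higher in the treated library, with a median log2 ratio of 0.23 against -0.03 over the 10302 genes with at least 100 UMIs in both libraries together. The intervals of 24 of the 40 lay above no difference, where 16.8% of all genes did, and the interval of 1 gene, Mcm6, lay below it, where 23.5% did. Tk1, Cks1b and Stmn1 passed 1.5-fold with an interval excluding no difference (2.64% of all genes passed upward), and 0 of the 40 passed downward (1.08%). The count past 1.5-fold was 5 with median-of-ratios scaling, TMM scaling or typing by Leiden clusters, and 6 with a mean over cells. Thymidine kinase Tk1, which salvages thymidine for DNA synthesis, was at 9.68 and 15.4 CPM, giving a log2 ratio of 0.67 (0.38 to 0.96). Cks1b, a small subunit of cyclin-dependent kinases, was at 38.6 and 58.3 CPM, for a log2 ratio of 0.59 (0.45 to 0.74). Stathmin Stmn1, which destabilises microtubules, was at 158 and 242 CPM, giving a log2 ratio of 0.61 (0.54 to 0.68). The summed level of the 40 genes was 2788 CPM (2764 to 2812) in the control and 3285 CPM (3256 to 3314) in the treated library.

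By role, the later cyclins and their kinase had the highest median log2 ratio over all CD8 T cells, 0.40, and the replication fork the lowest, 0.10. Within the first role the mitotic kinase Cdk1 was at 27.9 and 37.4 CPM, for a log2 ratio of 0.43 (0.25 to 0.60), and its lowest member was Ccnb1, the mitotic cyclin B1, at 11.6 and 13.7 CPM, 0.25 (-0.03 to 0.53). Of the fork genes, the PCNA-associated factor Pclaf stood highest, at 103 and 125 CPM, giving a log2 ratio of 0.29 (0.19 to 0.38). Mcm6, a subunit of the replicative helicase whose promoter is printed above, was at 114 and 102 CPM, for a log2 ratio of -0.15 (-0.25 to -0.06). The other 4 helicase subunits measured, Mcm2, Mcm3, Mcm5 and Mcm7, had ratios between 0.06 and 0.16, and of these 4 the interval excludes no difference only for Mcm5, at 40.0 and 44.6 CPM. The E-type cyclins Ccne1 and Ccne2, which open S phase, had ratios of 0.10 and 0.17 with intervals that include 0. Rrm1, the large subunit of ribonucleotide reductase, was lowest in nucleotide synthesis at 71.2 and 72.1 CPM, 0.02 (-0.10 to 0.13), and the chromatin protein Hmgb2 was lowest among the proliferation markers at 836 and 941 CPM, 0.17 (0.14 to 0.20).

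Spindle and cytokinesis genes were all 10 higher over all CD8 T cells, and the intervals of 7 lay above no difference. Birc5, encoding the chromosomal passenger protein survivin, was at 38.7 and 57.2 CPM, giving a log2 ratio of 0.56 (0.42 to 0.71), and Anln, the actin-binding anillin of the cleavage furrow, at 19.3 and 20.3 CPM, 0.08 (-0.15 to 0.30). Among the kinase, checkpoint and ligase genes Aurkb, the kinase of the chromosomal passenger complex, stood highest at 9.04 and 13.4 CPM, for a log2 ratio of 0.57 (0.27 to 0.87). Ube2c, the ubiquitin-conjugating enzyme that works with the anaphase-promoting complex, was at 48.9 and 69.3 CPM, giving a log2 ratio of 0.50 (0.37 to 0.63). The spindle pole kinase Aurka was lowest in that role, at 15.56 and 14.99 CPM, -0.05 (-0.31 to 0.20).

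Within cycling CD8 T cells most genes had ratios below 0, though most of the intervals include no difference. The median log2 ratio was -0.16, against -0.03 over all 6981 genes with enough UMIs, and 7 of the 40 genes were above 0. The intervals of 15 genes lay below no difference (11.6% of all genes) and those of 2 above it (8.21%), and 0 of the 40 passed 1.5-fold in either direction (1.09% of all genes passed upward and 1.63% downward). The summed level of the 40 genes was 9913 CPM (9805 to 10021) in the control and 9396 CPM (9293 to 9500) in the treated library, a log2 ratio of -0.08. Cell numbers behind these sums were 178 and 207. The median number of caller UMIs in these cells was 20 in the control and 18 in the treated library. The part of this difference in the lower levels was not tested.

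All 7 replication fork genes were lower in the cycling CD8 T cells of the treated library, between -0.32 and -0.13 on the log2 scale, and the intervals of 5 lay below no difference. Mcm6 was at 212 and 170 CPM, for a log2 ratio of -0.32 (-0.48 to -0.15), and Mcm5, the other helicase gene whose promoter is printed above, at 130 and 108 CPM, -0.26 (-0.47 to -0.06). The direction of all 7 held with median-of-ratios and TMM scaling, which moved every log2 ratio in these cells up by 0.03. Pcna, the sliding clamp of DNA polymerase, was at 441 and 403 CPM, giving a log2 ratio of -0.13 (-0.23 to -0.02). In nucleotide synthesis, Tyms, the thymidylate synthase, was lowest at 129 and 104 CPM, -0.30 (-0.51 to -0.09), and the ribonucleotide reductase subunit Rrm1 was at 225 and 191 CPM, -0.24 (-0.39 to -0.09). Tk1 stood highest in that role, at 40.2 and 47.9 CPM, 0.25 (-0.09 to 0.60).

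Of the mitotic genes in cycling CD8 T cells, the lowest ratios belonged to Aurka at -0.43 (-0.78 to -0.09), Cdc20 at -0.42 (-0.76 to -0.09), Cenpe at -0.41 (-0.59 to -0.23) and Anln at -0.41 (-0.67 to -0.17). Cdc20, the activator of the anaphase-promoting complex, went from 52.4 to 39.1 CPM between the libraries, and the kinetochore motor Cenpe from 183 to 138 CPM. Mitotic genes with values that differed little between the libraries were Birc5 at 202 and 209 CPM, Cdk1 at 133 and 130 CPM, and Tpx2, a spindle assembly factor, at 144 and 140 CPM. Aurkb stood highest among the kinase, checkpoint and ligase genes, at 46.3 and 53.0 CPM, 0.19 (-0.13 to 0.51), and Ccnb1 lowest among the later cyclins, at 56.4 and 47.0 CPM, -0.26 (-0.58 to 0.05). The E-type cyclins had intervals that include 0. The topoisomerase Top2a, lowest among the proliferation markers, was at 754 and 715 CPM, for a log2 ratio of -0.08 (-0.16 to 0.00).

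The intervals of 2 genes lay above no difference in cycling CD8 T cells. Cks2, the second small kinase subunit, was at 207 and 246 CPM, giving a log2 ratio of 0.25 (0.10 to 0.40). Stmn1 was at 678 and 797 CPM, for a log2 ratio of 0.23 (0.15 to 0.31). The sum of 7 T cell markers was also higher, at 2713 and 3634 CPM in cycling CD8 T cells and 3095 and 3838 CPM in the others. Not every marker rose, as Cd3e was at 321 and 317 CPM over all CD8 T cells. Of the 12 hepatoma markers 6 and 7 were seen in cycling CD8 T cells, at 39.9 and 47.3 CPM in sum, with Ttr, Ambp, Serpina1e, Ahsg and Gpc3 at 0 in both libraries, and in the other CD8 T cells 9 and 9 at 62.8 and 87.7 CPM. Of the 9 macrophage markers 6 and 8 were seen in cycling CD8 T cells, at 4.57 and 10.4 CPM, with Ms4a7 at 0 in both libraries, and all 9 in the others, at 12.6 and 30.8 CPM. Of the 8 neutrophil markers 5 and 6 were seen in cycling CD8 T cells, at 90.5 and 72.5 CPM, with Cxcr2 and Retnlg at 0 in both libraries, and 7 and 7 in the others, at 108 and 127 CPM. Their part in the result was not tested.

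**Figure D3:**
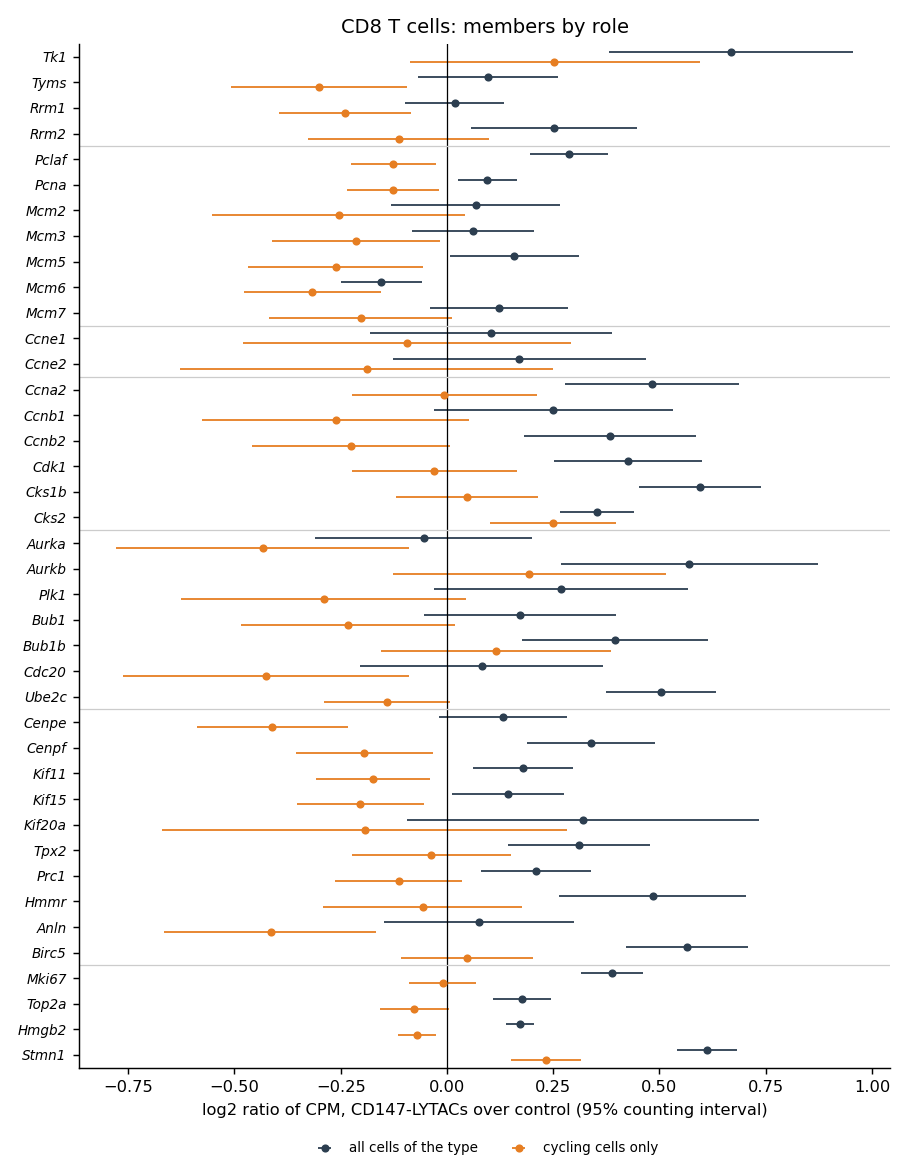
Log2 ratio of treated over control CPM (x axis) for each of the 40 genes (y axis, by role) in all CD8 T cells and in cycling CD8 T cells alone, with 95% intervals of counting error as bars. Most genes lie to the right of 0 over all cells, with a median of 0.23, and to the left of 0 within cycling cells, with a median of -0.16.

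CD8 T cells below the cycling call also held more of these transcripts in the treated library, mostly in cells just under the call. The summed level of the 40 genes in cells not called cycling was 1272 CPM (1254 to 1290) and 1550 CPM (1527 to 1572). By caller UMIs, it was 1060 and 1070 CPM at 0 to 2 UMIs and 1160 and 1198 CPM at 3 to 5 UMIs, where the intervals of the log2 ratio include 0. At 6 to 8 UMIs it was 1401 and 1817 CPM, giving a log2 ratio of 0.38 (0.32 to 0.43), and at 9 to 11 UMIs, in 109 and 87 cells, 2653 and 4230 CPM, 0.67 (0.60 to 0.75). Above the call the order turned, with 8121 and 7819 CPM at 12 to 17 UMIs and 11354 and 10517 CPM from 18 UMIs upward. The bands of 12 to 17 UMIs held 3.14% and 5.09% of the CD8 T cells and those from 18 upward 4.97% and 7.16%, while the band of 9 to 11 held 4.97% and 5.15%.

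Single genes in the CD8 T cells that were not called cycling had low counts, and 34 of the 40 reached 100 UMIs over both libraries. The intervals of 22 lay above no difference (17.1% of all genes), and 13 passed 1.5-fold upward (3.31%), among them Cenpf, Birc5 and Ube2c. Cenpf, a protein of the outer kinetochore, was at 2.92 and 11.4 CPM, for a log2 ratio of 1.97 (1.47 to 2.49), from 45 and 136 UMIs. Ube2c was at 8.96 and 28.3 CPM, 1.66 (1.37 to 1.95), and Mki67 at 22.7 and 41.6 CPM, 0.87 (0.67 to 1.08). Mcm6 again was lower, at 92.6 and 82.7 CPM, -0.16 (-0.28 to -0.04), the 1 gene whose interval lay below no difference (23.0% of all genes). The 6 genes under the count minimum were Ccna2, Ccnb1, Aurkb, Plk1, Kif20a and Hmmr.

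In hepatoma cells the 40 genes lay close to no difference. Over all hepatoma cells the median log2 ratio was 0.06, against -0.03 over 13532 genes, and 29 of the 40 were above 0. The intervals of 17 lay above no difference (20.1% of all genes) and those of 3 below it (28.9%), and 0 of the 40 passed 1.5-fold (0.968% of all genes passed upward and 2.41% downward). The summed level was 2595 CPM (2585 to 2606) and 2744 CPM (2734 to 2755), a log2 ratio of 0.08. Within cycling hepatoma cells it was 6587 CPM (6557 to 6617) and 6578 CPM (6549 to 6606), with a log2 ratio between -0.01 and 0.01 by its interval. The intervals of 13 genes lay above no difference there (14.9% of all genes) and those of 10 below it (23.6%), around a median of -0.02, and 0 of the 40 passed 1.5-fold (0.851% upward and 1.54% downward). In hepatoma cells not called cycling the sums were 849.9 and 900.3 CPM, and the intervals of 10 genes lay above no difference (19.6% of all genes) and those of 4 below it (25.7%). Of the markers of other lineages in cycling hepatoma cells, all 8 neutrophil markers summed to 3.36 and 13.1 CPM, all 7 T cell markers to 15.8 and 16.2 CPM, and 8 and 9 of the 9 macrophage markers to 29.6 and 32.1 CPM, and their part was not tested. UMI numbers were high in these sums, so intervals are narrow around small differences.

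The highest log2 ratios in cycling hepatoma cells were those of Tk1, Stmn1, Tyms, Birc5 and Rrm2. Tk1 was at 40.8 and 48.0 CPM, giving a log2 ratio of 0.23 (0.12 to 0.35), Tyms at 60.4 and 69.9 CPM, 0.21 (0.12 to 0.31), and Rrm2, the regulated subunit of ribonucleotide reductase, at 76.8 and 85.6 CPM, 0.16 (0.08 to 0.24). Its partner Rrm1 was at 122 and 110 CPM, -0.14 (-0.21 to -0.08). Cks2 was at 278 and 308 CPM, 0.15 (0.10 to 0.19), Birc5 at 151 and 173 CPM, 0.20 (0.14 to 0.25), and Stmn1 at 192 and 223 CPM, 0.21 (0.16 to 0.27). Ccna2, the cyclin of S phase and early mitosis, was lowest among the later cyclins at 81.1 and 78.5 CPM, -0.05 (-0.13 to 0.04). Aurkb was highest among the kinase, checkpoint and ligase genes at 0.12 (0.01 to 0.23) and Aurka lowest at -0.07 (-0.17 to 0.03). Over all hepatoma cells the highest of the 40 ratios was that of Tyms, at 24.5 and 30.3 CPM, 0.31 (0.23 to 0.39), and the lowest that of Mki67, at 134 and 122 CPM, -0.14 (-0.17 to -0.10).

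Lower values in cycling hepatoma cells were found for Mki67, Top2a and some helicase genes. Mki67 was at 394 and 341 CPM, for a log2 ratio of -0.21 (-0.25 to -0.17), although the share of cells in cycle was not lower. Top2a was at 679 and 611 CPM, -0.15 (-0.18 to -0.12), and Mcm3 at 112 and 96.4 CPM, -0.22 (-0.29 to -0.15). The 7 fork genes all had ratios below 0 here, but with median-of-ratios or TMM scaling, which moved the ratios up by 0.03, 3 of the 7 were above 0. In the E-type cyclins, Ccne1 was at 15.1 and 16.6 CPM and Ccne2 at 40.5 and 39.5 CPM, with intervals that include 0. Spindle genes ranged from Tpx2 at 190 and 177 CPM, -0.10 (-0.16 to -0.05), up to Birc5.

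**Figure D4:**
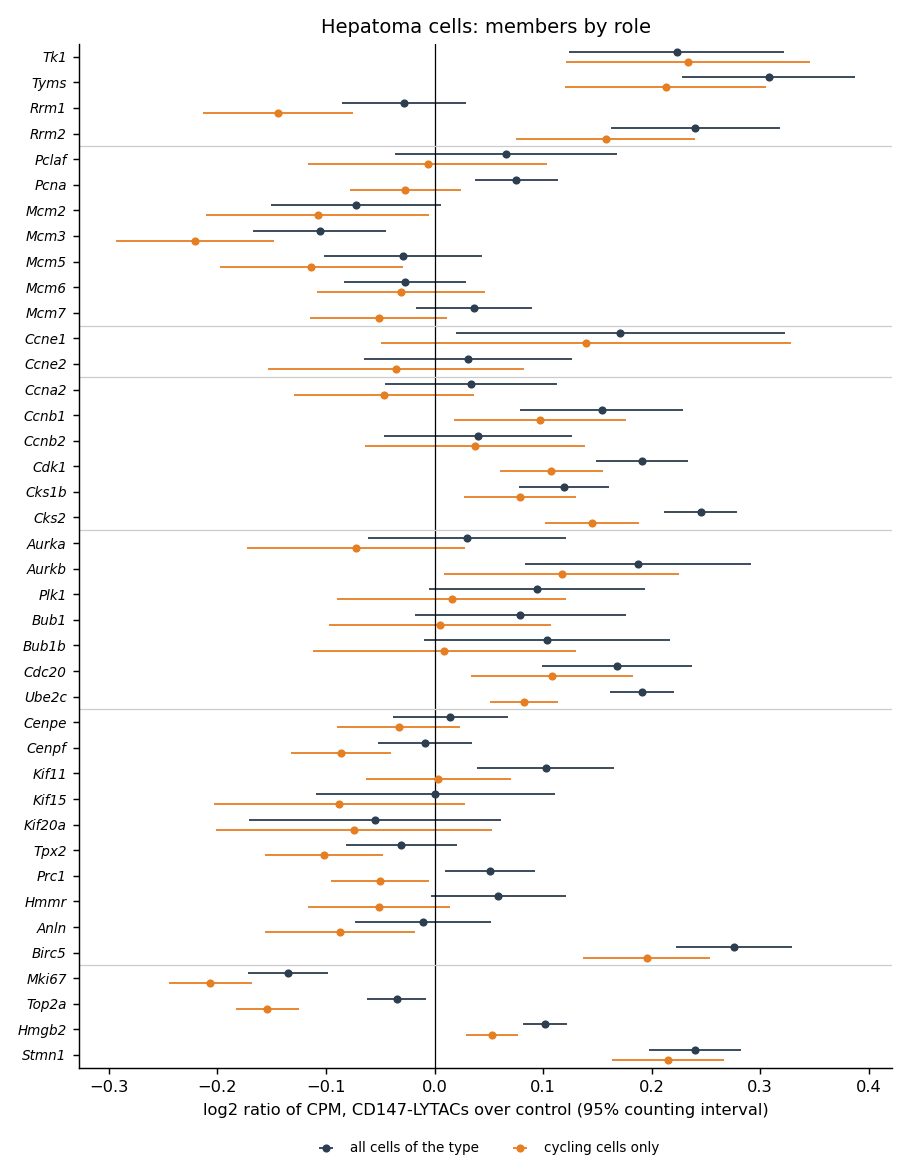
Log2 ratio of treated over control CPM (x axis) for each of the 40 genes (y axis, by role) in all hepatoma cells and in cycling hepatoma cells alone, with 95% intervals of counting error as bars. All points lie between -0.22 and 0.31, and the median is 0.06 over all cells and -0.02 within cycling cells.

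Set side by side, cycling cells of the 2 types had some log2 ratios alike and others apart, and no difference between types was tested. Stmn1 was at 0.21 in hepatoma and 0.23 in CD8 T cells, Cks2 at 0.15 and 0.25, Tk1 at 0.23 and 0.25, and Mcm3 at -0.22 and -0.21. Tyms was at 0.21 and -0.30, Rrm2 at 0.16 and -0.11, and Mki67 at -0.21 and -0.01. Tyms has intervals on opposite sides of no difference in the 2 types, 0.12 to 0.31 in hepatoma and -0.51 to -0.09 in CD8 T cells. Each pair of values comes from the same 2 libraries.

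How strictly the genes were tied to cycling cells differed among them. All 40 were higher in cycling than in other cells of the same type and library, which is a description, since the calling genes act in the same phases. In hepatoma cells the median fold was 11.2 in the control and 10.7 in the treated library, from 2.36 and 2.44 for Mcm6 to 26.0 and 29.6 for Aurkb. In CD8 T cells the median fold was 16.8 and 8.49, from 2.29 and 2.06, again for Mcm6, to 84.2 for Hmmr, a spindle-associated protein, in the control and 24.2 for Aurkb in the treated library. The 8.11% of control CD8 T cells called cycling held 88.1% of the Mki67 UMIs and 32.8% of the Mcm6 UMIs. Their treated counterparts, 12.3% of the cells, held 84.2% and 36.9%. Shares of UMIs and of cells are not on the same scale, as cycling cells held more RNA. In total they held 3281080 UMIs against 15403730 in the other CD8 T cells of the control. In the treated library the totals were 3380258 and 11886625 UMIs.

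Cycling cells were further divided by whether mitotic or replication caller genes gave more UMIs. These caller genes act in the same phases as the 40 genes. The order of the 40 between the 2 classes therefore follows largely from the split and is a description. Mitotic ones prevailed in 52.5% (47.5 to 57.4%) of control and 53.1% (48.6 to 57.7%) of treated cycling hepatoma cells, and in 65.2% (57.7 to 72.1%) and 63.3% (56.3 to 69.9%) of cycling CD8 T cells. The intervals of the libraries overlap in both types. Replication genes prevailed in 157 and 183 hepatoma cells and in 54 and 60 CD8 T cells, and the rest were ties. The balance also depends on the lists, which hold 50 mitosis and 40 replication caller genes. In hepatoma cells 27 of the 40 genes were higher in the mitotic cells in each library, and they were all 27 genes outside the nucleotide, fork and E-type cyclin roles. Of the remaining 13 genes, 12 in the control and 11 in the treated library were higher in the replication cells, with Tk1 in neither class in both libraries and Pclaf in the treated library only. Cenpf had a log2 ratio of mitotic over replication cells of 1.96 and 1.67, Plk1, the polo-like kinase of mitotic entry, 1.86 and 1.75, and Ccne1 -1.67 and -1.65.

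The same order was coarser in CD8 T cells. There 24 genes in the control and 18 in the treated library were higher in mitotic cells, 6 and 12 in replication cells, and 10 and 10 in neither. Ube2c was at 0.88 (0.63 to 1.13) in the control and 2.05 (1.65 to 2.46) in the treated library. It was at 156 CPM in control and 67.9 CPM in treated replication cells, against 286 and 281 CPM in mitotic cells. Stmn1 was at 0.17 (0.04 to 0.30) and -0.25 (-0.37 to -0.12), so that in the treated library it was higher in the replication cells, at 902 against 760 CPM. The replication class held 54 control and 60 treated CD8 T cells, and these values describe those cells only.

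**Figure D5:**
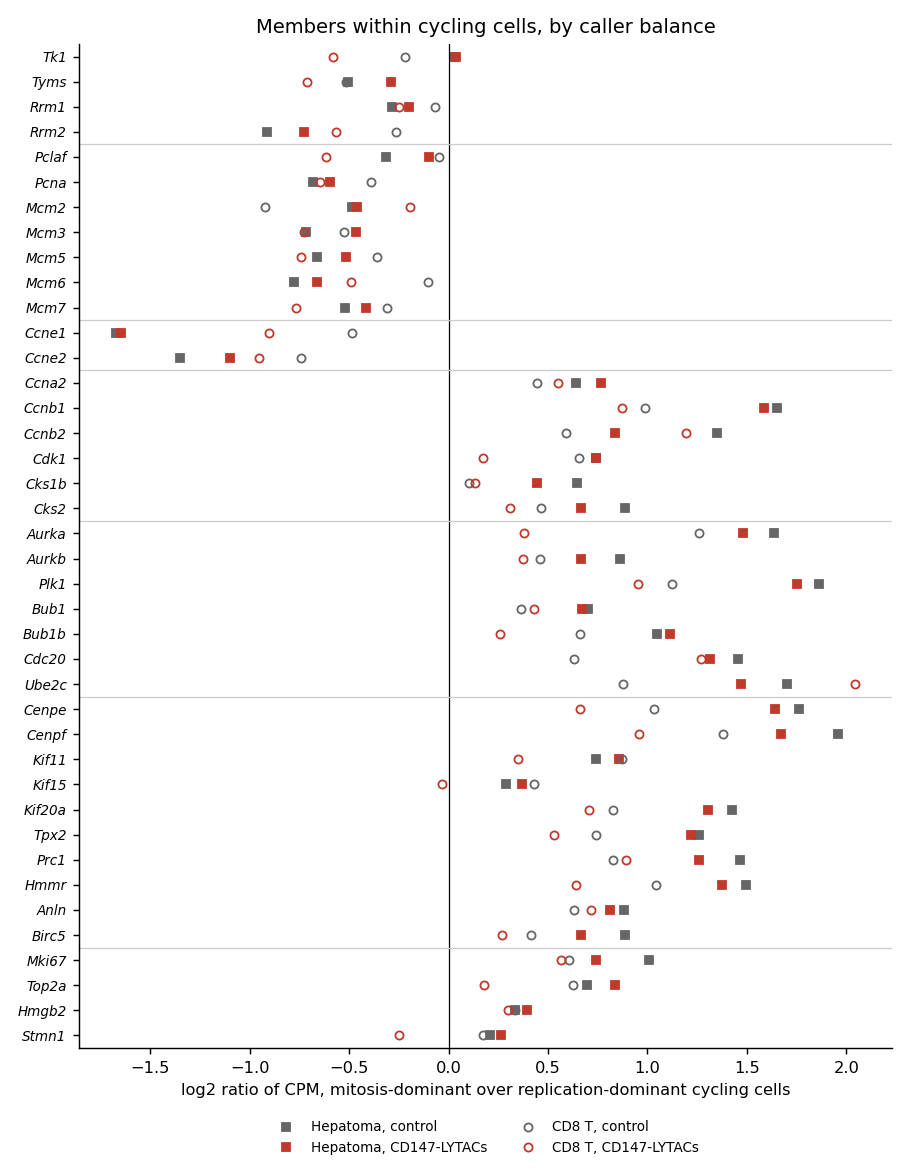
Log2 ratio of CPM in mitotic over replication cycling cells (x axis) for each of the 40 genes (y axis, by role), as filled squares for hepatoma cells and open circles for CD8 T cells of the control and the treated library, with no error bars. Hepatoma values run from Ccne1 at -1.67 and -1.65 to Cenpf at 1.96 in the control and Plk1 at 1.75 in the treated library, the nucleotide, fork and E-type cyclin genes other than Tk1 lie to the left of 0, and CD8 T values are more scattered.

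CD4 T cells had higher values of the mitotic genes in the treated library, from few cells. Of the 40 genes 22 reached the count minimum, and 10 of these passed 1.5-fold upward (2.26% of all genes), with 0 downward (3.15%). Stmn1 was at 91.2 and 204 CPM, giving a log2 ratio of 1.16 (0.90 to 1.43), and Cenpf at 18.4 and 49.7 CPM, 1.43 (0.87 to 2.02). The 14 and 15 cycling cells held 50% and 73.7% of the Stmn1 UMIs and 54.8% and 98.6% of the Cenpf UMIs. Without them Stmn1 was at 50.7 and 65.6 CPM and Mki67, at 108 and 154 CPM with them, at 43.3 and 22.4 CPM. In T cells placed in none of these gates, 27 genes reached the minimum and 0 passed 1.5-fold (1.81% upward and 1.43% downward), with Mki67 at 104 and 88.3 CPM and Cks2 at 119 and 156 CPM.

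Macrophages and monocytes had lower values in the treated library, and these rested in part on 3 cells. The summed level of the 40 genes was 1206 CPM (1148 to 1267) in the control and 621 CPM (593 to 650) in the treated library. Of 6 genes with enough UMIs, 4 passed 1.5-fold downward (7.95% of all genes): Mki67 at 103 and 25.8 CPM, for a log2 ratio of -2.00 (-2.43 to -1.59), Top2a at 72.4 and 12.4 CPM, -2.55 (-3.14 to -1.98), Hmgb2, a chromatin protein, at 252 and 154 CPM, -0.71 (-0.91 to -0.50), and Stmn1 at 76.9 and 35.4 CPM, -1.12 (-1.53 to -0.71). The 3 control cells called cycling held 58.4% of the Mki67 UMIs and 54.9% of the Stmn1 UMIs of that library. Without them the control stood at 45.5 CPM for Mki67, 31.9 CPM for Top2a, 177 CPM for Hmgb2 and 36.7 CPM for Stmn1, so Stmn1 then differed by little from the treated 35.4 CPM.

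In neutrophils the genes were low in most cases but Cks2 was not. Cks2 was at 316 and 267 CPM, giving a log2 ratio of -0.25 (-0.51 to 0.03), and at 2000 UMIs a UMI of it was seen in 34.7% and 36.4% of neutrophils, against 16.1% and 20.1% of CD8 T cells. Over all cells of a type its log2 ratio was 0.25 (0.21 to 0.28) in hepatoma, 0.35 (0.27 to 0.44) in CD8 T, 0.40 (0.15 to 0.65) in CD4 T, 0.39 (0.22 to 0.55) in other T cells and 0.54 (0.15 to 0.94) in macrophages and monocytes. These 5 types all have intervals above no difference, and neutrophils do not. No ratio was computed for the smaller types, among them Foxp3-positive T cells, with Cks2 at 165 and 159 CPM, and NK cells, at 128 and 209 CPM. Hmgb2 was at 254 and 167 CPM in neutrophils, -0.61 (-0.91 to -0.29), and Mki67, from 5 and 106 UMIs, at 12.0 and 30.7 CPM, 1.36 (0.09 to 3.01). Of the 4 genes with enough UMIs in neutrophils these 2 passed 1.5-fold, Mki67 upward (6.62% of all genes) and Hmgb2 downward (18.7%).

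Regulators upstream of the 40 genes, a list of 40 G1 cyclins, kinase inhibitors, RB and E2F family members, DREAM components and checkpoint genes, differed little. Over all CD8 T cells 37 had enough UMIs and 0 passed 1.5-fold. In cycling CD8 T cells 35 did, and Cdk2, the kinase of the E-type cyclins, passed downward at a log2 ratio of -0.59. In the other CD8 T cells 34 did, and Cdk4, the kinase of the D-type cyclins, at 0.63 and the checkpoint kinase Chek1 at 0.85 passed upward. Over all hepatoma cells 39 did, and Ccnd2, a D-type cyclin, passed downward from 1.05 to 0.54 CPM, for a log2 ratio of -0.95. In cycling hepatoma cells 37 did and 0 passed, and in the other hepatoma cells 38 did and the repressor E2f8 passed upward at 0.74. The shares of all genes past 1.5-fold in each of these comparisons are those given above, with 1.12% downward for CD8 T cells not called cycling, and for hepatoma cells not called cycling they were 0.936% upward and 2.19% downward.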

How the data were processed

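The values deposited are unnormalized UMI counts for each gene and barcode, made with Cell Ranger 3.0.2 on mm10 per the submitters' processing notes, while the file headers name Cell Ranger 7.1.0. The sources used here do not give the annotation release. Filters asked for 500 UMIs, 300 genes and no more than 15% of UMIs from mitochondrial genes, and 7091 control and 8176 treated barcodes passed. Scrublet in scanpy 1.11.5 marked 1 and 116 barcodes by its automatic threshold and had not worked in the control, so the 402 and 535 highest scores were removed, at 0.8% per 1000 barcodes.

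Cells were assigned by summed marker UMIs, and cells passing several gates were left out. UMI counts were summed per library and type and given as CPM. Shares have exact Clopper-Pearson 95% intervals, levels exact Poisson ones and log2 ratios exact conditional binomial ones. The interval of a ratio of shares combines the bounds of both shares and is wider than a 95% interval. No test was made, each group being 1 library. Genes reaching 100 UMIs in the libraries together counted as measured, and in a log2 ratio a count of 0 was taken as 3. Every one of the 40 genes is accounted for, and the highest and lowest ratios within roles are named, with further examples chosen after their values were seen. Regulators are named where they passed 1.5-fold. Other scalings used edgeR 4.0.16. The interval procedure was tested on simulated Poisson counts. These follow the model that the intervals assume, so the check does not cover UMIs clumped in few cells. The 40 genes and all lists were chosen with earlier results of these data known, and the gate thresholds and cycling counts were set after seeing the data.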

Additional observations from a re-analysis of the deposited data

Results flagged for a closer look

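For 4 genes the log2 ratio of treated over control, over all cells of a type, had intervals on opposite sides of no difference in different cell types. Mki67 was at 0.39 in CD8 T cells, -0.14 in hepatoma cells and -2.00 in macrophages and monocytes. Top2a was at 0.18, -0.035 and -2.55 in the same order. Hmgb2 was at 0.17 in CD8 T and 0.10 in hepatoma cells but -0.71 in macrophages and monocytes. Stmn1 was at 0.61 and 0.24 against -1.12. Other types are left out of these lists. In CD4 T cells the intervals of all 4 lay above no difference. T cells placed in none of the CD4, CD8 and Foxp3 gates had Mki67 at 104 and 88.3 CPM and Top2a at 136 and 118 CPM. Both had intervals below no difference. Hmgb2 was there at 670 and 659 CPM and Stmn1 at 91.0 and 118 CPM, and of these only the Stmn1 interval lay above no difference. In neutrophils Hmgb2 was at -0.61 and Mki67 at 1.36. The latter came from 5 control and 106 treated UMIs, so Mki67 reached the count minimum only through the treated library. The difference between cell types was not tested for any of the 4, since each group is 1 library. In macrophages and monocytes, 3 control cells called cycling held between 33.5% (Hmgb2) and 58.4% (Mki67) of the UMIs of these genes.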

How the results depend on the processing

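Each group is 1 library, so counting intervals do not cover differences between mice, tumours or preparations. No paired analysis was possible because each group holds 1 library. The ratio of cycling shares ranged from 1.36 to 1.64 in CD8 T cells and from 1.02 to 1.12 in hepatoma cells over 11 alternatives each. These included other numbers of caller UMIs, other gates and 1 shared number of 10 caller UMIs in all types, which was added after seeing the data. For CD8 T cells the lower number of caller UMIs is also 10, so 1 alternative is counted again in their 11 and 15. The median log2 ratio of the 40 genes ranged from 0.21 to 0.31 over all CD8 T cells (8 alternatives) and from -0.20 to -0.09 in cycling ones (15 alternatives). Over all hepatoma cells it ranged from 0.05 to 0.09 (8 alternatives). In cycling hepatoma cells it was -0.02, and from -0.03 to 0.08 over 15 alternatives, so its sign is not settled; 0.078 came from calling cells by replication genes only, and the cause was not tested. Members past 1.5-fold over all CD8 T cells were 3, but 5 with median-of-ratios scaling, 5 with TMM scaling, 5 with cells typed by Leiden clusters and 6 with a mean over cells; the cause was not tested. Over all hepatoma cells that count was 0 under all 8 alternatives. The number of cells limits the shares in CD4, Foxp3-positive, NK and dendritic cells, where few or no cycling cells were found.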
